A study of Arabidopsis thaliana with 6 samples.

Results

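High CO2 was compared with ambient CO2 in rosette tissue of Arabidopsis thaliana, with light held equal inside each comparison. All 6 arrays of the series entered: 3 titled highCO2 and 3 titled ambientCO2, forming 3 pairs by the light level (low, medium or high) in their titles. The first group is Col-0 (stock N1092) grown in high CO2 and the second is Col-0 of the same stock grown in ambient CO2. Both groups shared everything else the labels give: the sampled tissue was the rosette centre, up to leaf 11, at growth stages 3.20 to 3.50, from plants in compost treated with Intercept insecticide. Growth followed stratification at 4 °C for 3 days and took place at 21 °C, with a light period of 10 h and a dark period of 14 h. Neither the CO2 concentration nor the light intensity nor the number of plants per RNA sample is stated in the labels. For the high-light array titled highCO2, the atmosphere entry reads normal. It was placed by its title. Every array carries replicate number 1 and no combination of CO2 and light was measured more than once. Each p-value of the CO2 contrast therefore sets the mean difference against its variation between light levels, moderated towards the spread of probe sets of similar signal. That shared spread weighed more, with a mean prior of 5.49 degrees of freedom against 2 residual ones. In the variation between light levels, array noise, which may be technical, and a CO2 response that depends on light cannot be told apart. The number of arrays limits the precision.

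CO2 reaches the leaf interior through stomata, pores whose opening is set by guard cells, and is fixed by Rubisco in the Calvin-Benson cycle. Oxygen competes for the same enzyme and feeds photorespiration, so more CO2 favours sugar production over photorespiration. Guard cells close in raised CO2, and signals from mature leaves adjust how many stomata young leaves form, the subject named in the series title.

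Each array gave 1 MAS5 signal for each of 22810 probe sets, on a scale set so that the mean after trimming 2% of values at each end was 100. Of these, 13243 probe sets with a mean signal of at least 30 were tested after 64 control probe sets had been left out, and 7152 of them carried 1 gene name. Median signals lay between 40.7 and 43.2. Log2 signals of the 2 arrays of a pair correlated across tested probe sets with Pearson's r of 0.97 at low, 0.97 at medium and 0.95 at high light. The leaf identity of the tissue was checked by RCA, the Rubisco activase of mesophyll cells, at 3608.0 to 4800.1, and by FAMA, a guard cell regulator, at 56.9 to 82.9. CLV3, of the shoot meristem, lay between 1.4 and 8.6, and PYK10, a root glucosidase, between 18.1 and 63.7. On the low-light ambient array PYK10 (63.7) stood above FAMA (56.9), so FAMA and PYK10 do not separate leaf from root there. PYK10 was also lower in high CO2 in every pair (log2 -0.54 ± 0.26, SE of the fit). It passed the filter through its low-light ambient signal, and its signals at medium and high light were under 30, so this difference is not firm. The epidermal, vascular and floral marker lists had no member named in the probe table used here.

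With light as a factor, 5 probe sets rose in high CO2 (0.0378% of those tested) and 1 fell (0.00755%), at a Benjamini-Hochberg adjusted p under 0.05 in limma's moderated test with 2 residual degrees of freedom. None of the 6 is paired with a gene in the probe table used here, so they are given by probe set. At an unadjusted p under 0.05, 611 probe sets had a higher signal (4.61%) and 543 a lower one (4.1%). In bulk tissue, fewer cells of a type and less RNA per cell cannot be told apart.

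Probe set 251673_at had signals of 70.2, 97.0 and 259.6 in high CO2 at low, medium and high light, against 16.9, 15.2 and 52.9 in ambient CO2. The high CO2 array was above its partner at every light level, and the groups did not overlap. The rise was 5.07-fold (log2 2.34 ± 0.18, SE of the fit, 3 pairs, adjusted p = 0.0241). The ambient signals at low and medium light lay under 30, where MAS5 values are noisy. The probe set passed the filter through its high CO2 signals, so neither its size nor its p is firm.

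Probe set 266070_at had 107.5, 226.1 and 486.3 in high CO2 at low, medium and high light, against 27.7, 48.0 and 172.1 in ambient CO2 (log2 1.90 ± 0.16, adjusted p = 0.0274). Its signal climbed with light in both groups, and the groups overlapped, since the ambient array at high light stood above the high CO2 array at low light. The same layout held for 249581_at, with 313.9, 649.0 and 1308.2 in high CO2 against 125.9, 165.7 and 542.0 in ambient CO2 (1.52 ± 0.15, adjusted p = 0.0327). Probe set 259925_at had 384.1, 470.2 and 818.2 in high CO2 against 144.6, 151.3 and 182.6 in ambient CO2 (1.74 ± 0.16, adjusted p = 0.0274). Here all 3 high CO2 arrays exceeded all 3 ambient ones, and the ambient signals moved little with light.

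Probe set 266746_s_at had 784.0, 387.3 and 795.7 in high CO2 at low, medium and high light, against 332.8, 170.5 and 231.0 in ambient CO2 (1.40 ± 0.14, adjusted p = 0.0327). The groups did not overlap, and medium light was the low point of both. The 1 fall was 267256_s_at, with 100.6, 121.6 and 80.4 in high CO2 against 264.2, 271.9 and 190.5 in ambient CO2 (-1.27 ± 0.12, adjusted p = 0.0279). Its groups did not overlap either. The suffix of these probe sets marks probes shared by several transcripts, so the signal may come from more than 1 gene.

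Just outside the threshold stood AT5G55450, a protein of the lipid transfer and protease inhibitor family, with adjusted p = 0.0573 (log2 1.21 ± 0.14). Its signals were 318.3, 710.8 and 1286.7 in high CO2 at low, medium and high light, against 159.1, 239.1 and 619.9 in ambient CO2, a difference of similar size in each pair. Probe set 262832_s_at had the same adjusted p (2.24 ± 0.26), with 36.1, 106.3 and 239.9 in high CO2 against 12.7, 15.7 and 43.9 in ambient CO2. It passed the filter through its high CO2 signals, so neither its size nor its p is firm.

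**Figure D1:**
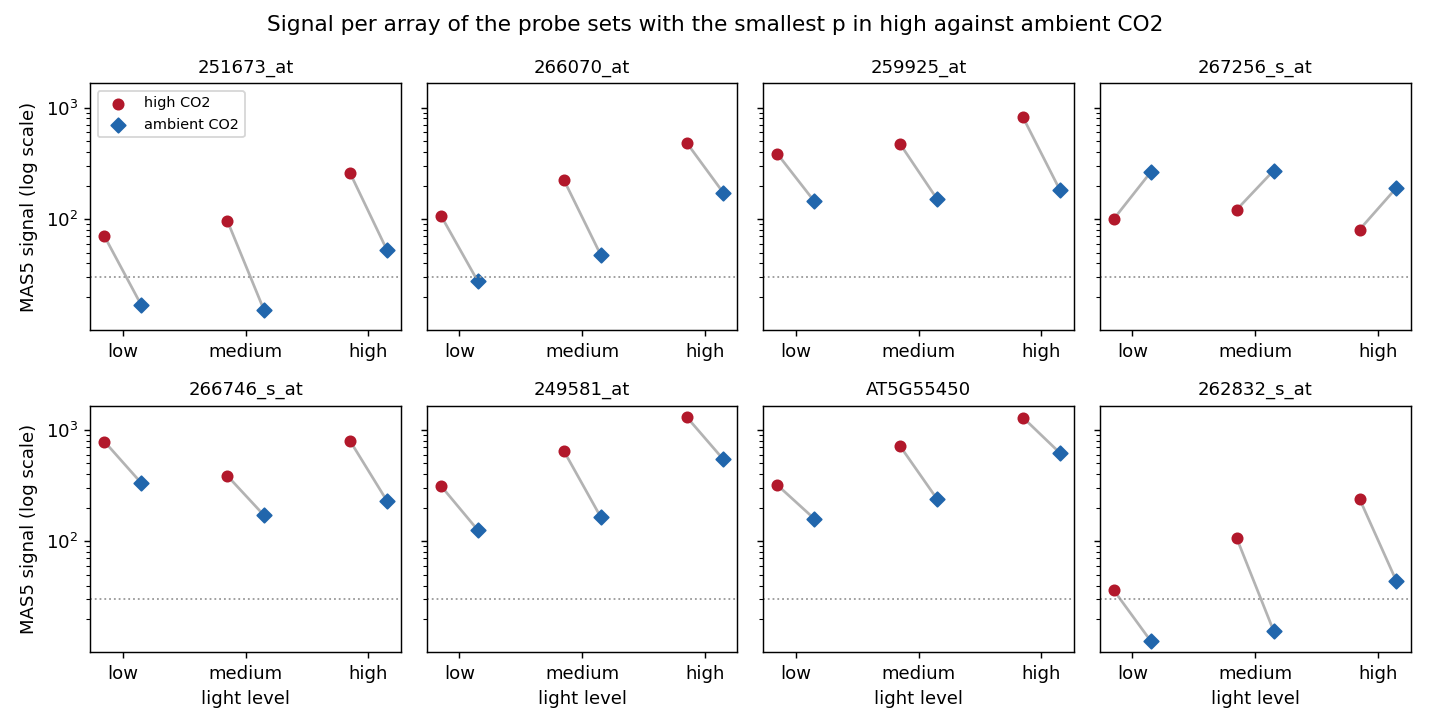
MAS5 signal on a log axis for each of the 6 arrays (high CO2 in red on the left of each pair, ambient CO2 in blue on the right) at low, medium and high light, for the 6 probe sets past the threshold and the 2 just outside it. A grey line joins the arrays of a light level and the dotted line marks a signal of 30; every line slopes the same way within a panel, down for 7 of them and up for 267256_s_at.

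The number of calls changed with the arrays that entered. Without the high-light highCO2 array, which leaves the low- and medium-light pairs and 1 residual degree of freedom, 147 probe sets passed, and without its ambient partner 141 did. All 6 calls were among the 147. Without either medium-light array the count was 0, and it was also 0 with the CO2 group taken from the atmosphere entry or with no intensity trend in the prior.

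A second view asked for size in every pair. At least 1.5-fold (0.6 on the log2 scale) in the same direction at all 3 light levels, 36 probe sets were higher in high CO2 (0.272%) and 29 were lower (0.219%), of which 11 and 10 carried 1 gene name. The 6 calls belong to these 65. The same sign at all 3 levels, at any size, held for 2131 probe sets with a higher signal (16.1%) and 1841 with a lower one (13.9%). The genes below have the smallest p among single-gene probe sets with a mean difference of at least 0.6 and the same sign in every pair. None of the 24 passed the adjusted threshold.

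Among the 12 genes on the higher side, the largest difference was that of AT5G18470, a lectin-like protein of the curculin family. It had signals of 46.5, 49.2 and 124.1 in high CO2 at low, medium and high light, against 14.8, 19.9 and 50.1 in ambient CO2 (log2 1.42 ± 0.19, adjusted p = 0.114). The high-light ambient array slightly exceeded the low- and medium-light high CO2 arrays, so the groups overlap unless light is matched. AT5G18470 passed the filter through its high CO2 signals, so neither its size nor its p is firm. AT1G07050, with a CCT motif as found in clock and flowering regulators, had 59.3, 84.6 and 265.1 in high CO2 against 18.4, 22.1 and 183.3 in ambient CO2 (1.39 ± 0.26, adjusted p = 0.231). Its log2 differences were 1.69 at low, 1.94 at medium and 0.53 at high light. The ambient signals of AT1G07050 at low and medium light were under 30, so its differences there are not firm.

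MIK2 (AT4G08850), a leucine-rich repeat receptor kinase, had 210.0, 128.4 and 299.2 in high CO2 at low, medium and high light, against 123.8, 60.8 and 194.7 in ambient CO2 (0.82 ± 0.13, adjusted p = 0.148). AT3G04210, with the TIR and nucleotide-binding domains of resistance proteins, had 203.1, 132.1 and 281.2 in high CO2 against 105.7, 77.2 and 185.1 in ambient CO2 (0.77 ± 0.12, adjusted p = 0.146). Both genes had their lowest signal at medium light in either CO2 level. AT5G62360, of the pectin methylesterase inhibitor family that acts on cell walls, had 299.7, 248.8 and 281.9 in high CO2 against 127.7, 107.0 and 182.5 in ambient CO2 (1.03 ± 0.15, adjusted p = 0.128). Its groups did not overlap.

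AT4G34950, of the major facilitator superfamily, had 827.7, 351.6 and 752.5 in high CO2 at low, medium and high light, against 533.2, 224.1 and 510.6 in ambient CO2. Its difference was small and even, 0.63, 0.65 and 0.56 in the 3 pairs (0.61 ± 0.10, adjusted p = 0.146). AT3G23550, a MATE efflux carrier, had 50.0, 48.7 and 59.1 in high CO2 against 27.4, 20.9 and 24.1 in ambient CO2 (1.13 ± 0.21, adjusted p = 0.213). All its ambient signals were under 30, and it passed the filter through its high CO2 signals, so neither its size nor its p is firm.

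The remaining higher genes were AT4G38550 (1.11 ± 0.21, on a probe set whose probes are shared by several transcripts), AT5G50450 (0.76 ± 0.13), the RING-finger gene AT3G47160 (0.76 ± 0.15) and the kinase gene AT1G48210 (0.70 ± 0.13). AT4G38550 differed most at medium light, by 1.80, against 0.85 at low and 0.66 at high light, whereas AT1G48210 stayed between 0.64 and 0.79.

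On the lower side, AT3G21670 (NPF6.4), a nitrate transporter family gene, had 297.8, 162.0 and 36.9 in high CO2 at low, medium and high light, against 519.4, 477.6 and 86.2 in ambient CO2 (log2 -1.20 ± 0.16, adjusted p = 0.114). Its signal was lowest at high light in both groups, and the high CO2 array was the lower of each pair. It was the only one of 17 genes on the nitrate uptake and assimilation list that the probe table named. AT1G62660 (BFRUCT3), a vacuolar invertase that splits sucrose, had 65.9, 41.1 and 12.5 in high CO2 against 135.8, 67.9 and 37.4 in ambient CO2 (-1.12 ± 0.21, adjusted p = 0.215).

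AT1G60590, of the pectin lyase-like family, had 114.9, 162.6 and 65.9 in high CO2 at low, medium and high light, against 189.7, 288.4 and 129.4 in ambient CO2 (-0.84 ± 0.12, adjusted p = 0.128). AT1G10640, of the same family, had a mean difference of -0.67 ± 0.14 (adjusted p = 0.277). AT4G26790, a GDSL-type lipase, had 47.9, 51.1 and 37.1 in high CO2 against 90.6, 93.6 and 72.1 in ambient CO2. Its groups did not overlap, and its 3 differences lay between -0.96 and -0.87 (mean -0.92 ± 0.14, adjusted p = 0.129).

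The thionin gene THI2.2 had 157.7, 103.1 and 53.0 in high CO2 at low, medium and high light, against 240.1, 179.9 and 112.0 in ambient CO2 (-0.83 ± 0.14, adjusted p = 0.152). AT2G43535, a defensin-like peptide, had 52.5, 55.7 and 47.9 in high CO2 against 79.2, 115.5 and 88.6 in ambient CO2 (-0.84 ± 0.15, adjusted p = 0.194), with no overlap. ORA47, an AP2/ERF factor that activates jasmonate synthesis genes, had a difference of -0.80 ± 0.16 (adjusted p = 0.261).

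The widest gap of the 24 was that of AT4G17470, an alpha/beta hydrolase family gene, with 2.3, 5.1 and 12 in high CO2 at low, medium and high light, against 113.9, 44.8 and 48.8 in ambient CO2. All high CO2 signals were under 30, and the gene passed the filter through its ambient signals, so its log2 difference of -3.60 ± 0.65 (adjusted p = 0.213) is not a firm size. The other lower genes were AT3G19030 (-1.41 ± 0.29), AT1G13650 (-1.12 ± 0.16) and the translation elongation factor gene AT5G12110 (-0.86 ± 0.16). AT3G19030 differed by -0.46 at low, -1.57 at medium and -2.21 at high light, where its high CO2 signal was 19.9. At high light AT1G13650 had 10.7 in high CO2 and 28 in ambient CO2. With signals under 30, the high-light differences of AT3G19030 and AT1G13650 are not firm.

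**Figure D2:**
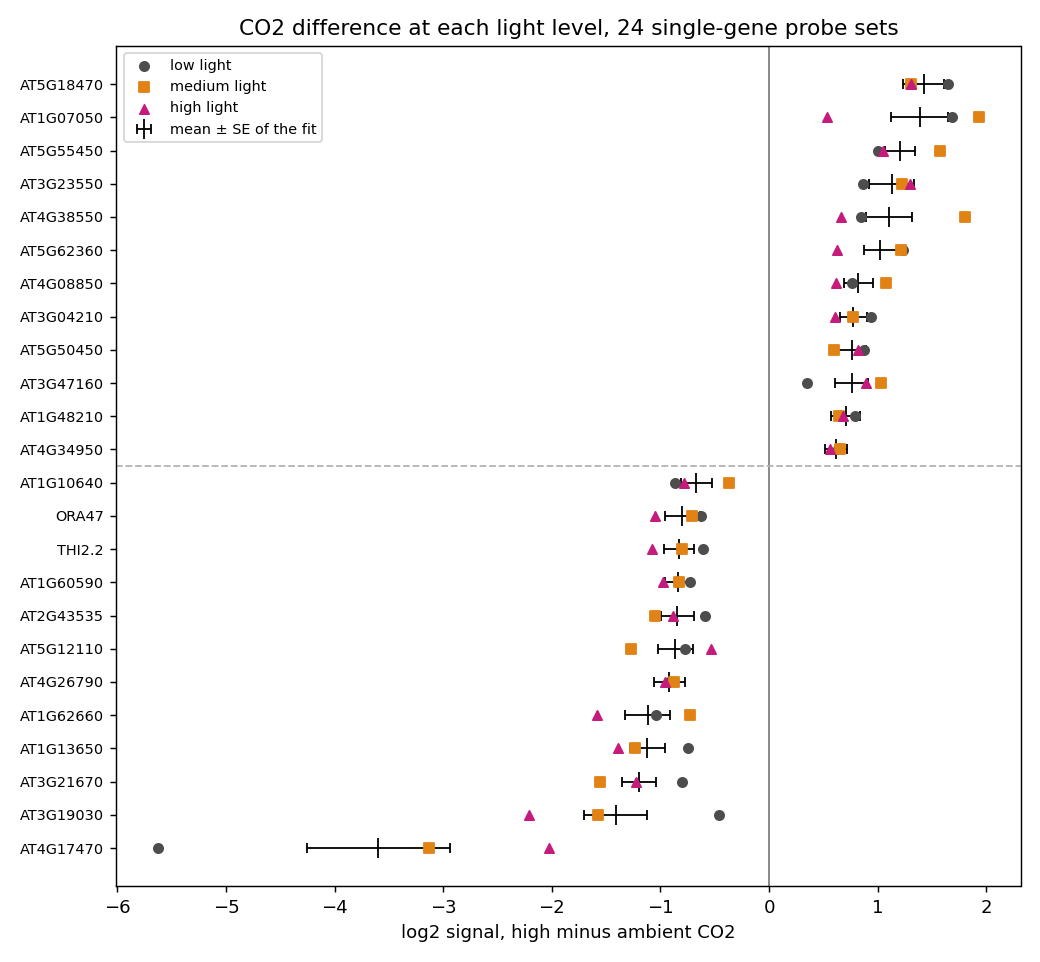
CO2 difference in log2 signal (high minus ambient) at low, medium and high light for the 12 higher and 12 lower single-gene probe sets with the smallest p, with the mean ± SE of the fit as a black bar. Every point lies on its gene's own side of 0, which the selection required. The points of AT4G34950 and AT4G26790 nearly coincide, while those of AT4G17470 span from -5.63 to -2.02.

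Most members of the 65 have no gene name here. Among the 36 higher probe sets, the largest mean differences belonged to 245038_at (log2 2.94 ± 0.58, adjusted p = 0.261), COR27 (2.93 ± 0.68) and 251625_at (2.76 ± 0.40, adjusted p = 0.128). Signals of 245038_at in ambient CO2 were 16.5, 2.4 and 60.9 at low, medium and high light, and those of 251625_at 18.5, 13.5 and 20.5. These probe sets passed the filter through their high CO2 signals, so neither their sizes nor their p-values are firm. COR27 is a cold- and light-regulated partner of the circadian clock, singled out after its values were seen. It had 22.1, 28.6 and 237.0 in high CO2 at low, medium and high light, against 1.1, 2.0 and 152.4 in ambient CO2, so its gap was wide at low and medium light, where both groups were under 30, and 0.64 at high light. Probe set 265837_at held the highest single signal of the 36, with 387.6, 317.1 and 1406.0 in high CO2 against 203.3, 85.4 and 725.9 in ambient CO2 (1.26 ± 0.19, adjusted p = 0.129).

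Of the 29 lower probe sets, 245928_s_at had the largest difference after AT4G17470, with 31.4, 86.4 and 113.4 in high CO2 at low, medium and high light, against 1357.9, 275.5 and 531.1 in ambient CO2 (-3.11 ± 0.62, adjusted p = 0.261). The groups did not overlap, and the gap was widest at low light. The median of the mean differences was 1.14 over the 36 higher members, -0.93 over the 29 lower members and 0.01 over all tested probe sets. A signal under 30 on at least 1 array occurred in 20 of the 36 and 16 of the 29, beside 1727 of all 13243 tested. The members of this rule were thus more often dim than the tested probe sets as a whole. The light difference of the same members used the same 6 arrays. High minus low light, its median over the 36 higher members was 0.99 in high CO2 and 0.80 in ambient CO2, and over the 29 lower members -0.74 in high CO2 and -0.75 in ambient CO2, beside 0.04 and 0.01 over all tested.

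Bright genes were taken as the 5 with the highest mean signal on each side among those with an unadjusted p under 0.05 and the same sign in every pair. None passed after adjustment, and their differences were small. ECS1, a cell wall protein linked to disease resistance, had 5704.9, 5502.5 and 5509.2 in high CO2 at low, medium and high light, against 4144.5, 4101.8 and 4150.6 in ambient CO2. Both groups were nearly flat over light and did not overlap (log2 0.43 ± 0.08, adjusted p = 0.194). Plastid-encoded psbM, a small subunit of photosystem II, had 4403.5, 4907.1 and 4922.5 in high CO2 against 3157.3, 4101.3 and 3557.2 in ambient CO2 (0.40 ± 0.09, adjusted p = 0.278).

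Plastid atpB, the beta subunit of the chloroplast ATP synthase, differed by 0.29 ± 0.08, and LHCB4.1, an antenna protein of photosystem II, by 0.20 ± 0.08. AT3G22240 had 5995.5, 4812.3 and 5614.1 in high CO2 at low, medium and high light, against 4395.5, 2052.0 and 4839.3 in ambient CO2. Its mean of 0.63 ± 0.18 (adjusted p = 0.388) drew on the medium-light pair, which differed by 1.23.

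The 5 bright genes on the lower side were ALDH11A3, a cytosolic glyceraldehyde phosphate dehydrogenase (-0.29 ± 0.10), the lipid transfer family gene AT5G48490 (-0.37 ± 0.11), the glutathione transferase gene GSTU20 (-0.47 ± 0.20), AT4G23670 (-0.48 ± 0.12) and AT1G67350 (-0.22 ± 0.09). GSTU20 had 467.5, 1065.7 and 1131.4 in high CO2 at low, medium and high light, against 1036.6, 1219.4 and 1180.0 in ambient CO2. Its difference of -1.15 at low light exceeded those of -0.19 at medium and -0.06 at high light.

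The pairs themselves differed in how many probe sets lay at least 2-fold apart. At low light 87 were higher in high CO2 (0.657%) and 126 lower (0.951%). At medium light 196 were higher (1.48%) and 115 lower (0.868%), and at high light 121 were higher (0.914%) and 293 lower (2.21%). With 1 array on each side these counts describe those arrays and carry no test. The SD of the CO2 difference over probe sets was 0.36 at low, 0.39 at medium and 0.44 at high light. Across the 13243 probe sets the differences of separate pairs, which share no array, correlated weakly: Pearson's r was 0.24 between low and medium, 0.14 between low and high, and 0.09 between medium and high light.

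**Figure D3:**
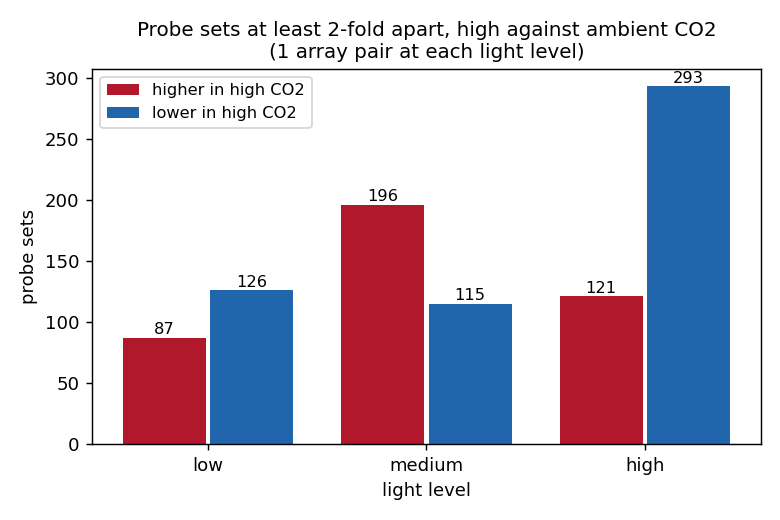
Number of tested probe sets with a signal at least 2-fold higher (red, left) or lower (blue, right) in high CO2 than in ambient CO2 at each light level, from 1 array pair each. Higher probe sets outnumber lower ones at medium light, 196 to 115, and lower ones outnumber higher ones at high light, 293 to 121.

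Leaving out the high-light highCO2 array, the 147 calls were 93 higher (0.702%) and 54 lower (0.408%). At high light 104 of them kept their sign and 43 did not. One gene name was carried by 45, of which 29 were higher and 16 lower at low and medium light. In 19 of the 29 and 13 of the 16 the high-light difference had the same sign. How often the signs agree in this way over all tested probe sets was not counted, so nothing is read from these sign counts. The gene group includes 15 of the 24 genes of the earlier paragraphs, among them AT5G18470, AT1G07050, MIK2, AT3G21670 and AT4G17470. Of the genes that follow, GI, COR47 and IMA1 belong to the gene lists, and the other 8 were singled out after their values were seen.

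LCR69, a defensin-like peptide, had 1443.7, 2721.3 and 3285.4 in high CO2 at low, medium and high light, against 839.1, 1143.0 and 2724.3 in ambient CO2. The low- and medium-light differences were 0.78 and 1.25, and the high-light one was 0.27 (adjusted p = 0.0043 without the high-light highCO2 array). GI, a clock protein that promotes flowering, had 368.5, 398.3 and 502.6 in high CO2 against 260.8, 188.3 and 485.2 in ambient CO2. Its difference of 1.08 at medium light was 0.05 at high light (adjusted p = 0.0343 without that array).

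COR47, a dehydrin induced by cold and drought, had 1028.0, 394.9 and 380.9 in high CO2 at low, medium and high light, against 584.8, 254.4 and 770.6 in ambient CO2. It was higher in high CO2 in the low- and medium-light pairs, by 0.81 and 0.63, and lower by 1.02 on the log2 scale at high light (adjusted p = 0.0232 without the high-light highCO2 array). AT3G59350, a kinase gene, had 108.9, 54.8 and 116.4 in high CO2 against 54.5, 22.1 and 302.7 in ambient CO2. The ERF-type transcription factor gene AT4G32800 had 25.4, 38 and 83.2 in high CO2 against 8.2, 8.3 and 111.1 in ambient CO2. In both of these genes the ambient array was the higher one at high light alone. AT4G32800 passed the filter through its high-light signals. Both its ambient signals at low and medium light were under 30, so its differences there are not firm.

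Other genes higher at low and medium light were AT1G79470, an IMP dehydrogenase of purine synthesis, the glutaredoxin gene AT2G47880 and the cyclophilin gene AT2G21130. Their high-light differences were 0.33, -0.15 and -0.10. AT1G79470 had 35.5, 69.6 and 54.4 in high CO2 at low, medium and high light, against 3, 23.8 and 43.4 in ambient CO2. It passed the filter through its high CO2 signals, so neither its size nor its p is firm. On the lower side were SWEET17, a fructose carrier of the vacuole membrane, and NdhS, a subunit of the chloroplast NDH complex. SWEET17 had 302.5, 145.8 and 154.1 in high CO2 at low, medium and high light, against 478.5, 299.4 and 136.8 in ambient CO2. NdhS had 508.3, 354.1 and 418.4 in high CO2 against 845.8, 541.7 and 401.2 in ambient CO2, a difference of 0.06 at high light.

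IMA1 (AT1G47400), a peptide that promotes iron uptake, had 13.4, 18.5 and 15.9 in high CO2 at low, medium and high light, against 81.8, 49.4 and 23.5 in ambient CO2. Its signal was under 30 on all 3 high CO2 arrays, and it passed the filter through its ambient signals at low and medium light, so neither its size nor its p is firm. The gap narrowed from low to high light (-2.61, -1.42 and -0.56). The adjusted p was 0.0108 without the high-light highCO2 array and the mean over 3 pairs was -1.53 ± 0.39, which did not pass.

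**Figure D4:**
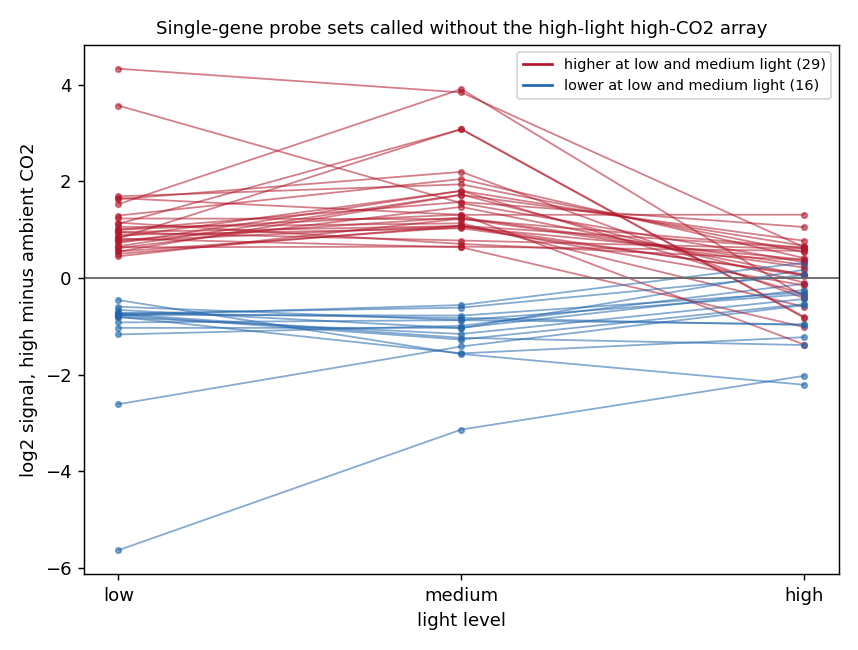
CO2 difference in log2 signal (high minus ambient) at low, medium and high light for the 45 single-gene probe sets that passed without the high-light high-CO2 array, 29 higher (red) and 16 lower (blue) at low and medium light. At high light 19 of the 29 and 13 of the 16 keep their sign, a share not counted over all tested probe sets. Some lines move farther from 0 (AT3G19030) and others cross it (AT3G59350, COR47). The rule selected on low and medium light, so the spread there is set by it.

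Whether the CO2 difference moved in order along the 3 light levels was tested with a product of CO2 and a light score, which left 1 residual degree of freedom. No probe set passed in limma. At an unadjusted p under 0.05, 259 of 584 probe sets had a rising and 325 a falling difference. With the arrays brought to equal medians 19 passed, all falling, and these included the 4 named below.

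The 4 single-gene probe sets with the smallest p among falling differences shared 1 feature, a high signal on the high-light ambient array. AT4G27280, an EF-hand calcium-binding protein, had 217.4, 97.1 and 152.2 in high CO2 at low, medium and high light, against 161.3, 133.5 and 2130.9 in ambient CO2. AT4G29780 had 84.2, 35.7 and 33.9 in high CO2 against 77.8, 65.4 and 792.0 in ambient CO2. AT3G57450 and AT1G32920 showed the same pattern, with 827.6 and 694.6 on that array and between 81.3 and 268.5 on the others. The slopes per light step were -1.62 ± 0.19 for AT1G32920, -1.57 ± 0.22 for AT3G57450, -2.12 ± 0.29 for AT4G27280 and -2.33 ± 0.32 for AT4G29780, and the value of 1 array sets the size of each.

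On the rising side, where the slopes lay between 0.75 and 1.27 per light step, AT1G73930 had 53.1, 56.5 and 81.4 in high CO2 at low, medium and high light, against 82.2, 66.2 and 21.6 in ambient CO2. XERICO, a RING-finger protein that raises abscisic acid levels, had 131.3, 149.0 and 138.4 in high CO2 against 132.0, 111.3 and 48.5 in ambient CO2. It was flat over light in high CO2 and lowest at high light in ambient CO2. AT1G48330 had 130.6, 138.7 and 210.3 in high CO2 against 144.4, 109.7 and 67.8 in ambient CO2. AT1G68570 (NPF3.1), a nitrate and gibberellin transporter, had 49.8, 92.0 and 143.0 in high CO2 against 80.3, 89.9 and 81.0 in ambient CO2.

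Of 344 genes on 25 lists, 89 were named in the probe table, 79 were tested and 0 passed. The others may still be on the array, since 8794 of its probe sets are not in that table. That share stands beside 0.0378% higher and 0.00755% lower over all probe sets. At an unadjusted p under 0.05 stood 12 tested members with a higher signal and 7 with a lower one, beside 4.61% and 4.1% of all probe sets. The lists were chosen with results of these arrays known, so nothing is read from these counts. In the Calvin-Benson cycle, 0 of 3 tested members passed, and RCA (0.16 ± 0.08), PRK, which makes the CO2 acceptor (-0.02 ± 0.10), and SBPASE (-0.03 ± 0.09) gave a median of -0.02, beside 0.01 over all tested probe sets. The 5 photorespiration genes ran from -0.25 (GDCH2, a subunit of glycine decarboxylase) to 0.04 (GLYK, glycerate kinase), with a median of -0.11 and 3 of 5 lower at all light levels.

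HPR1, the hydroxypyruvate reductase of photorespiration, had 2025.6, 1687.7 and 1453.9 in high CO2 at low, medium and high light, against 2140.2, 2157.2 and 1504.6 in ambient CO2 (-0.16 ± 0.10). PLGG1, the glycolate and glycerate carrier of the chloroplast envelope, differed by -0.11 ± 0.09. In light harvesting, LHCB4.2 (0.10 ± 0.08) and LHCB4.3 (-0.15 ± 0.11) stood beside LHCB4.1. The 4 reference genes TIP41L, SAND, GAPC2 and UBC21 differed by 0.03 to 0.07.

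The plastid list was the 1 list named in full in the probe table, with 15 of 15 genes tested. Of these, 6 were higher and 1 lower in high CO2 at all light levels, beside 16.1% higher and 13.9% lower over all probe sets, and the median was 0.12. The largest was ATPA, with 2872.5, 4409.8 and 3853.5 in high CO2 at low, medium and high light, against 2862.5, 2381.7 and 3282.6 in ambient CO2 (0.38 ± 0.16). The single lower gene was RBCL, which encodes the large subunit of Rubisco, with 706.2, 794.8 and 713.1 in high CO2 against 904.5, 936.5 and 749.1 in ambient CO2 (-0.22 ± 0.10).

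For stomata, the probe table named 6 of the 20 genes listed. SPCH, which starts the lineage, had -1.15 ± 0.41 (adjusted p = 0.48), resting on a signal of 5.6 in high CO2 at low light against 32.4 in ambient CO2. STOMAGEN, a peptide that promotes stomata, had 236.6, 272.1 and 227.2 in high CO2 at low, medium and high light, against 242.4, 320.7 and 279.1 in ambient CO2 (-0.19 ± 0.11). FAMA, CRSP and AGL16 differed by -0.09 ± 0.15, -0.12 ± 0.20 and 0.31 ± 0.15. MUTE was below the filter at 6.4, 13.7 and 17.2 in high CO2 against 2.9, 16.2 and 14.8 in ambient CO2. In guard cell CO2 signalling, 2 of 13 genes were named in it. PATROL1, which moves a proton pump to the membrane, had 0.13 ± 0.12. RHC1, a MATE carrier, lay below the filter at 27.9 to 34.1 in high CO2 against 18.2 to 28.5 in ambient CO2.

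Carbohydrate lists gave mixed values. SWEET11, a sucrose exporter, had 191.1, 258.1 and 299.5 in high CO2 at low, medium and high light, against 108.3, 204.5 and 221.0 in ambient CO2 (0.53 ± 0.13). PWD, which phosphorylates starch for breakdown, had 0.44 ± 0.15, with its widest gap, 0.83, at medium light. DPE1, also of starch breakdown, had 0.23 ± 0.15, SPP2 of sucrose synthesis -0.32 ± 0.14 and SPS4F -0.04 ± 0.33. In starch synthesis, APL3 (-0.48 ± 0.26) and the branching enzyme gene SBE2.2 (-0.21 ± 0.13) had mixed signs over light, and APL4 lay under 30 on all arrays. Of the sugar starvation genes, MCCA had -0.25 ± 0.15 and IVD -0.07 ± 0.22.

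All 4 tested genes of flavonoid and anthocyanin synthesis were lower in high CO2 at every light level, where 13.9% of all probe sets were, and none passed. DFR, dihydroflavonol reductase, had 36.8, 63.5 and 68.3 in high CO2 at low, medium and high light, against 47.1, 89.7 and 196.6 in ambient CO2 (-0.79 ± 0.23). UF3GT, A5GT and UGT78D2, which add sugars to the pigments, had -0.74 ± 0.33, -0.95 ± 0.59 and -0.27 ± 0.15. A5GT had 1.2, 15.2 and 38.3 in high CO2 against 2.3, 16.1 and 135.4 in ambient CO2. It passed the filter through its high-light ambient signal, so neither its size nor its p is firm. Its lower sign at low and medium light rests on signals under 30. The acyltransferase gene 5MAT, below the filter, had 29.6 in high CO2 and 66.6 in ambient CO2 at high light. For each of these 5 genes the widest gap was at high light.

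PDF1.2, a defensin of the jasmonate and ethylene pathway, had 17.2, 82.0 and 483.9 in high CO2 at low, medium and high light, against 8.6, 74.1 and 33.8 in ambient CO2 (1.66 ± 0.60). PDF1.2b had 26.1, 185.4 and 770.0 in high CO2 against 18.0, 147.3 and 38.1 in ambient CO2 (1.73 ± 0.68). These near-identical copies may share probe signal, so they are not separate evidence. THI2.1 was below the filter at 18.1 to 25.4 in high CO2 against 24.3 to 26.9 in ambient CO2.

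In the opposite direction, ZAT10, a zinc finger protein of early stress, had 90.9, 53.0 and 76.6 in high CO2 at low, medium and high light, against 60.5, 58.6 and 764.3 in ambient CO2. AT1G72940 had 302.2 on the high-light ambient array and 39.0 to 49.2 on the others, and EXO, a sugar-responsive growth gene, had 1594.5 there and 69.0 to 161.8 elsewhere. COR15A, a chloroplast cold protein, had 1329.4, 1123.1 and 1271.9 in high CO2 against 1050.0, 440.4 and 2540.3 in ambient CO2, while COR15B and LTI30 likewise had positive differences at low and medium light and negative ones at high light. Of the salicylic acid list, WRKY53 differed by -0.11 ± 0.30, and SAG101 and GRX480 lay below the filter.

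The other lists had few members named in the probe table. WSD1, a wax ester synthase, had 17.7, 58.2 and 27.8 in high CO2 at low, medium and high light, against 37.2, 71.8 and 105.1 in ambient CO2 (-1.10 ± 0.29). BCAT4, an early enzyme of methionine-derived glucosinolates, had 64.7 in high CO2 and 364.8 in ambient CO2 at low light, but differed by 0.14 and -0.18 at medium and high light. UGT74C1 and UGT74B1, later enzymes of that pathway, differed by -0.34 ± 0.18 and -0.04 ± 0.19. PYE, a regulator of the iron response, had -0.26 ± 0.17, and bHLH101 lay below the filter.

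None of the growth and cell division genes passed. IAA29, an auxin-response repressor, had 135.5, 93.5 and 52.2 in high CO2 at low, medium and high light, against 112.4, 73.6 and 42.0 in ambient CO2, an even 0.27 to 0.35 (0.31 ± 0.13). YUC2 of auxin synthesis had 0.17 ± 0.14, EXPA8 -0.06 ± 0.15 and FHL 0.09 ± 0.28. In cell division the kinase genes AUR1, AUR2 and AUR3 had -0.24 ± 0.14, -0.14 ± 0.15 and -0.24 ± 0.18, and MCM7 had -0.02 ± 0.12. Of lipid transfer proteins other than AT5G55450 and AT5G48490, AT3G18280 differed by -0.29 ± 0.19, and AT4G12490 and AT4G12500 lay below the filter.

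**Figure D5:**
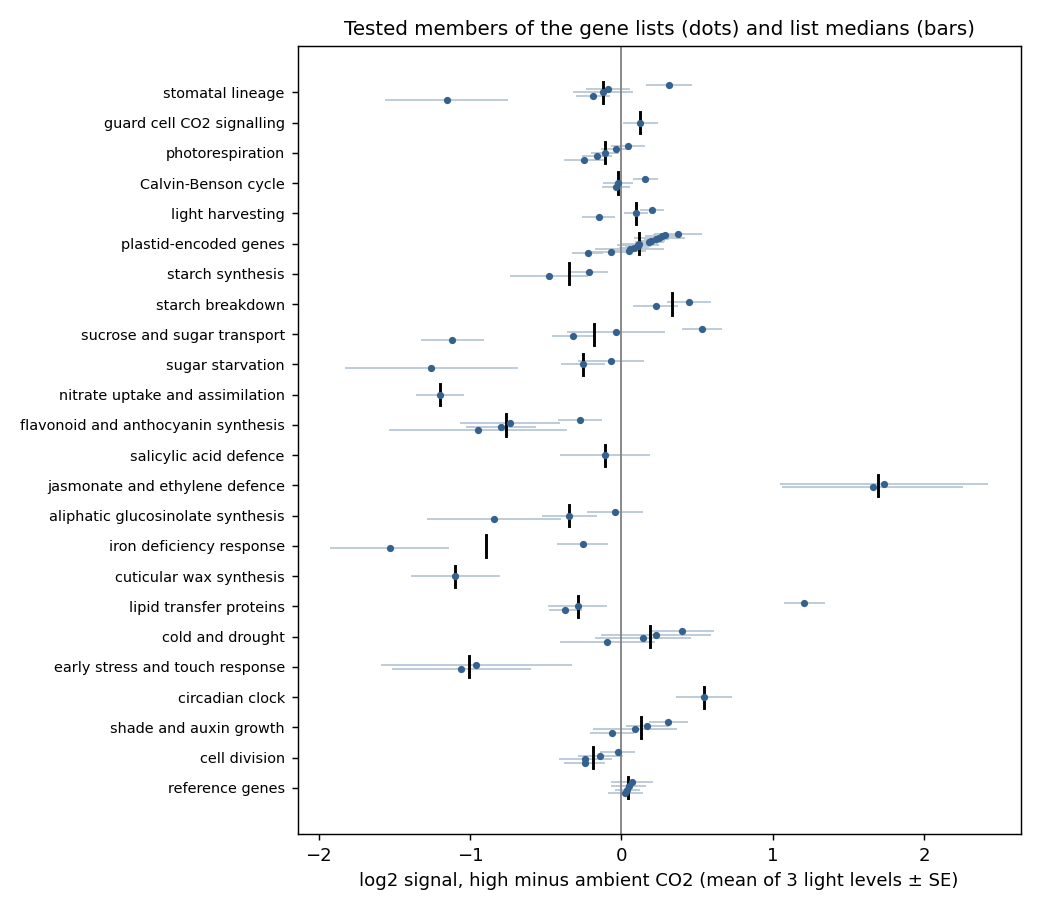
Mean CO2 difference in log2 signal (high minus ambient, 3 light levels) ± SE of the fit for the 79 tested members of 24 lists (blue dots), with the list median as a black bar. Carbon fixation, plastid and reference genes crowd near 0, while the 4 widest errors belong to PDF1.2b, ZAT10, PDF1.2 and A5GT, each with its widest gap at high light.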

How the data were processed

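Per the labels, biotin-labelled total RNA was hybridised to 6 ATH1 short-oligonucleotide arrays. Each deposited column holds linear intensity, 1 signal per probe set, and carried the same trimmed mean on every array. The submitters' processing notes name MAS5 without a version. That algorithm weighs perfect-match against mismatch probes, so log values of dim probe sets vary widely. No use was made of detection calls.

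Signals were set to at least 0.1 (64 were at 0) and taken to log2. The CO2 contrast was fitted with light as a factor in limma 3.58.1 (R 4.3.3), using lmFit and then eBayes with its trend option and a mean prior of 5.49 degrees of freedom, and the slope of the CO2 difference with a light score from -1 to 1. Benjamini-Hochberg adjustment ran over all 13243 tested probe sets. Errors after ± are standard errors of the fit and use the same moderated spread as the p-values. The code was tested on simulated data, and figures were drawn with matplotlib 3.10.9 in Python 3.11.15.

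Of 14016 probe sets in the probe table, 13513 had a single gene and 503 more than 1. A further 8794 on the array are not in it. Symbols came from the TAIR10.1 gene table, in which 13436 of the single genes were found. For genes with several probe sets, those without a shared-probe suffix came first, then the brighter.

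The comparison, the gene lists and the named genes were chosen with earlier results of these data known. Named are every probe set past the threshold, up to 12 genes on each side with the smallest p, a mean difference of at least 0.6 and the same sign at all light levels, the 5 brightest on each side, 4 rising and 4 falling slopes, and up to 4 members of each list. The photoprotection list had no member named in the probe table. Alternatives covered normalization, filters, a pseudocount of 30, the prior, the light term, the atmosphere entry and each array left out, which removes its pair from the contrast.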

Additional observations from a re-analysis of the deposited data

Results flagged for a closer look

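For 4 of the named genes the CO2 difference had opposite signs at low and high light, each at least 0.6 on the log2 scale. With 1 array pair per light level this difference was tested only as a slope along the light order, which no probe set passed. AT1G73930 differed by -0.63 at low light and 1.91 at high light (log2, high minus ambient CO2; slope adjusted p = 0.437 in limma). AT1G68570 (NPF3.1), a nitrate and gibberellin transporter, differed by -0.69 at low light and 0.82 at high light (slope adjusted p = 0.458 in limma). COR47, a dehydrin, differed by 0.81 at low light and -1.02 at high light. AT3G59350, a kinase gene singled out after its values were seen, differed by 1.00 at low light and -1.38 at high light. Each of these signs rests on single arrays.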

How the results depend on the processing

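Against 6 calls for high minus ambient CO2, the count was 4 with quantile normalization, 8 with equal medians or a robust prior, 5 at a mean signal of at least 100 and 7 with log2(signal + 30). It was 0 without the filter, without the intensity trend, without a light term, with light as a linear score and with the atmosphere entry, where 1576, 1091, 323, 648 and 885 probe sets had an unadjusted p under 0.05. With 1 array left out it ranged from 0 (either medium-light array) to 147 (the high-light highCO2 array), with 10 and 12 calls without the high CO2 and the ambient array at low light; without the high CO2 or the ambient array at medium light, 1123 and 1117 had an unadjusted p under 0.05. The cause was not tested. Calls along the light order were 0 under every alternative tried except equal medians, which gave 19. The 65 probe sets at least 1.5-fold apart at all light levels became 473 without the filter, 26 at a mean signal of at least 100, 23 with log2(signal + 30), which shrinks low signals, 15 at 2-fold and 3972 at any size.

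Of the 130 genes and probe sets followed, 100 kept their sign under every alternative, among them all 24 consistent genes. These 24 were selected for the same sign in every pair, so leaving out an array could not change it. At least 1 alternative was passed by 34, including those singled out because they passed without the high-light highCO2 array. The 6 called probe sets passed under 6 to 9 of 16 alternatives each (15 for 251673_at) and did not pass under the rest. No called value changed sign, though all 6 had the same sign in every pair, so leaving out an array could not change it. The main contrast is paired by light. By replicate number, no paired analysis was possible because every label carries number 1.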

Other observations

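Values of separate arrays gave a further description. Across the 13243 tested probe sets, the CO2 difference at medium light correlated with the difference between high and low light in high CO2, taken from other arrays, with Pearson's r of 0.29 (Spearman's rho 0.21), and with the same light difference in ambient CO2 with r of 0.34 (rho 0.26). Among 6514 probe sets with a mean signal of at least 100, r was 0.37 in high CO2 and 0.43 in ambient CO2. The points share probe sets, and the 2 light differences share no array with the medium-light pair. For the CO2 difference at high light, set against medium minus low light, r was 0.02 in high CO2 and 0.05 in ambient CO2. For that at low light, set against high minus medium light, it was 0.09 in high CO2 and 0.11 in ambient CO2.

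The high-light highCO2 array correlated more closely with the medium-light highCO2 array (r = 0.966 over log2 signals of the tested probe sets) than with its own high-light ambient partner (0.954). The medium- and low-light highCO2 arrays each correlated with their ambient partners at 0.965 and 0.971, and with one another at 0.944.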
